A study of Mus musculus with 2 samples.

Results

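The TNF superfamily pairs trimeric ligands, most of them held on the cell surface, with receptors that recruit TRAF adaptors or, through a death domain, caspase activators. In macrophages the family carries signals to and from lymphocytes, tunes survival and, through the receptor RANK, drives osteoclast formation. Besides Tnf itself, 10 members were described here, 5 ligands (Tnfsf9, Tnfsf10, Tnfsf12, Tnfsf13b and Tnfsf15) and 5 receptors (Tnfrsf10b, Tnfrsf11a, Tnfrsf14, Ltbr and Fas). They were picked by gene symbol and are 10 of the 55536 mouse genes measured. All 10 had an entry in both libraries.

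Polyadenylated RNA came from primary macrophages grown out of C57BL/6J bone marrow and stimulated for 120 minutes. The labels disagree on the agent: the free-text description gives 100 ng/ml lipid A, the part of bacterial lipopolysaccharide that Tlr4 senses, and the treatment and source fields name lipoprotein A at that dose. The series holds 1 group of 2 libraries, biological replicates 1 and 2, and 1 donor record covers both, so whether they came from separate animals is not given. Age and sex were not collected. Unstimulated cells were not analysed here, so the values are levels after stimulation and say nothing of induction.

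Total counts were 33319563 in replicate 1 and 50334059 in replicate 2, and a count of 0 leaves room for up to 3 counts as a one-sided limit, or 0.0902 and 0.0597 CPM (counts scaled to library size). The labelled cell type was checked against its markers. All 6 macrophage markers reached 1 TPM in both libraries (TPM is transcript abundance scaled to length and library size). Their summed level was 18400 TPM in replicate 1 and 23900 TPM in replicate 2, of which Lyz2 alone had 13520 and 19280 TPM. The median log2 ratio of normalised CPM over the 6, replicate 1 over replicate 2, was -0.14, and none was 2-fold apart. Granulocyte markers stood apart between the libraries, at a summed 517 and 67.3 TPM in replicates 1 and 2. Of these 8 markers, 4 reached 1 TPM in both, against 43.6% of protein-coding genes, and none was at 0 in both. No marker of T cells, NK cells or stromal cells reached 1 TPM in either library, and Cd8a and Trac among 5 T cell markers, and Prf1 and Eomes among 5 NK cell markers, had 0 counts in both. Of 5 B cell markers 1 (Cd79b) reached 1 TPM in both. Dendritic cell markers also stood higher in replicate 1, at a summed 8.12 and 3.01 TPM in replicates 1 and 2, with 3 of 5 reaching 1 TPM in replicate 1 and 1 (Ccr7) in replicate 2. Siglech (log2 ratio 2.46) and Zbtb46 (1.72) were more than 2-fold apart. Ccr7 was less far apart (0.60), and Xcr1, at 0.25, had a 95% counting interval that included 0 (-0.19 to 0.69). None of the 5 was at 0 in either library. In bulk RNA, fewer cells of a type and less RNA per cell cannot be told apart.

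The members spanned more than 3 orders of magnitude in level. Gene spans are given on mm10. Of the 10 members, 8 reached 1 TPM in both libraries, against 43.6% of protein-coding genes and 18.5% of all genes. Tnfsf9 (chr17:57105325-57107757), the ligand of the costimulatory receptor 4-1BB, stood far above the rest at 658.8 TPM in replicate 1 and 499.3 TPM in replicate 2. Its mean of 579 ± 113 TPM (SD, n = 2) ranked 226 among the 55536 genes, and the lower of its libraries was still more than 6 times the higher library of any other member.

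Tnfsf12 (chr11:69686250-69695849), which encodes the cytokine TWEAK, followed at 77.51 TPM in replicate 1 and 73.95 TPM in replicate 2. Next came 5 genes within a narrow range. Tnfrsf14 (chr4:154921933-154928563), which encodes the receptor HVEM, had 58.38 and 39.33 TPM in replicates 1 and 2, and Tnfsf15 (chr4:63727084-63745113), which encodes the T cell costimulator TL1A, had 35.72 and 42.63 TPM. Tnfrsf11a (chr1:105780718-105847981), which encodes RANK, had 37.02 and 29.28 TPM. Ltbr (chr6:125306571-125313885), the lymphotoxin beta receptor gene, had 33.93 and 32.14 TPM, and the death receptor gene Fas (chr19:34290666-34327772) had 24.19 and 26.41 TPM. Within this set the order was not firm: the ranges of the libraries overlapped between Tnfrsf14 and Tnfsf15, between Tnfsf15 and Tnfrsf11a and between Tnfrsf11a and Ltbr.

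At the low end, Tnfsf10 (chr3:27317028-27342427), which encodes the death ligand TRAIL, had 3.40 TPM in replicate 1 and 6.71 TPM in replicate 2. Tnfrsf10b (chr14:69767472-69784411), the mouse death receptor for TRAIL, had 0.70 and 0.58 TPM from 46 and 55 counts. Tnfsf13b (chr8:10006467-10039072), which encodes the B cell survival factor BAFF, was close to the floor, with 5 counts in replicate 1 (95% counting interval 1.62 to 11.7) and 19 in replicate 2 (11.4 to 29.7), or 0.08 and 0.66 TPM. The last 2 genes overlapped in range. The order of the 10 means was the same in the second quantification, by kallisto, in which Tnfsf9 had 560.7 and 382.2 TPM and Fas 23.74 and 25.04 TPM.

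The spread between the libraries was small beside the level for Tnfsf12 (75.7 ± 2.52 TPM, SD, n = 2), Ltbr (33.0 ± 1.27 TPM) and Fas (25.3 ± 1.57 TPM). It was wider for Tnfrsf14 (48.9 ± 13.5 TPM), Tnfsf15 (39.2 ± 4.89 TPM) and Tnfrsf11a (33.2 ± 5.47 TPM). Tnfsf10 (5.05 ± 2.34 TPM) and Tnfsf13b (0.37 ± 0.41 TPM) varied most for their level, and Tnfsf13b had an SD above its mean.

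The reads behind these levels differed with transcript length as well as with level. Tnfsf9 rested on 14962 counts in replicate 1 and 16682 in replicate 2, Tnfrsf11a, whose coding transcript has 5027 bases, on 3349 and 3916, and Tnfsf15 on 2469 and 4340. Tnfsf12 had 1960 and 2737 counts and Ltbr 1396 and 1947. Tnfrsf14 rested on only 575 and 659 counts and Fas on 502 and 809, although both had more than 20 TPM, so their transcript shares are less precise than those of Tnfrsf11a.

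By kallisto, Tnfrsf14 had 45.61 and 27.40 TPM in replicates 1 and 2, Tnfsf15 had 32.59 and 35.99 TPM and Tnfrsf11a had 33.37 and 24.66 TPM. Tnfsf10 had 3.17 TPM in replicate 1 and 5.61 TPM in replicate 2. Replicate 1 was thus the higher library for Tnfrsf14 and Tnfrsf11a, and replicate 2 for Tnfsf15 and Tnfsf10, in both quantifications.

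**Figure D1:**
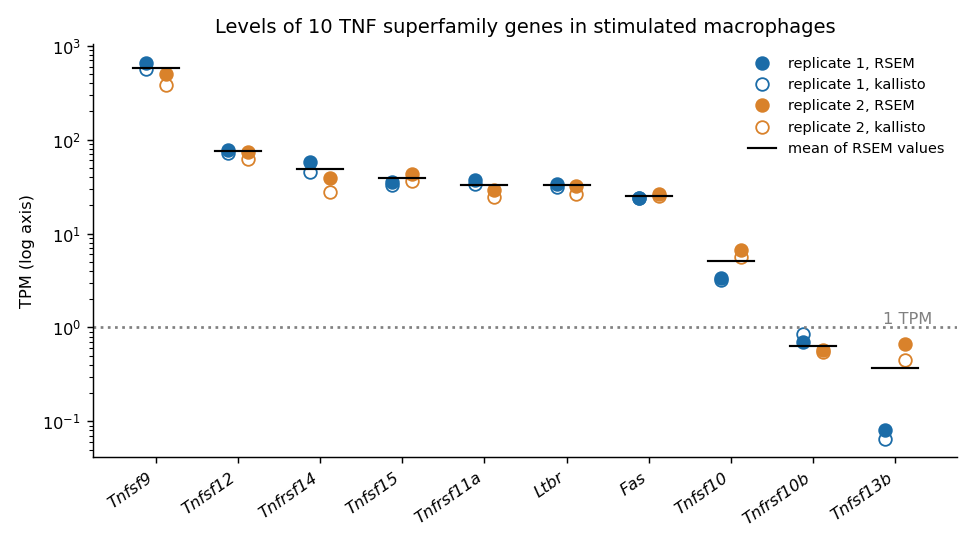
TPM on a log axis for the 10 genes, ordered by mean, in replicate 1 (left point of each pair) and replicate 2 (right point), with filled points for RSEM, open points for kallisto and a bar at the RSEM mean. Tnfsf9 stands alone near 579 TPM, 7 genes lie between 1 and 100 TPM, and Tnfrsf10b and Tnfsf13b lie below the dotted line at 1 TPM.

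Before the transcript shares, the splice junctions that separate the isoforms are shown, because they mark where the isoforms part. Each line gives the last 22 bases of an exon in lower case and the 8 bases that follow it in that transcript in capitals, from the reference transcripts of GENCODE M21 on mm10. In Tnfrsf14, on the minus strand of chromosome 4, the final exons of the main complete transcripts begin 3 bases apart (positions 154922327 and 154922324).

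Tnfrsf14-205: caaggagctggagcctttccagCAGGAACA
Tnfrsf14-201: caaggagctggagcctttccagGAACAACA

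In Fas, on the plus strand of chromosome 19, exon 2 (ending at position 34307278) joins 3 different exons. The standard receptor transcript Fas-201 joins it to position 34315179, Fas-202 to 34309036 and Fas-204 to 34310012. The capitals of Fas-202 end in its stop codon, which closes a reading frame of 63 codons against 327 in Fas-201.

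Fas-201: tgctgtcaaccatgccaacctgGTAAAAAA
Fas-202: tgctgtcaaccatgccaacctgAAAACTAG
Fas-204: tgctgtcaaccatgccaacctgGTCTCTCA

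In Tnfrsf11a, on the plus strand of chromosome 1, Tnfrsf11a-203 reads on into the intron after the last exon 4 base that it shares with Tnfrsf11a-201 (position 105813794).

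Tnfrsf11a-201: ggcttcggagctcagcatccctTGCAGCTC
Tnfrsf11a-203: ggcttcggagctcagcatccctGTACGGCT

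In Tnfsf12, on the minus strand of chromosome 11, the final exon either runs on or, in the read-through gene Tnfsfm13, is left at position 69686957 for an exon that starts at 69685130. Tnfsfm13 encodes TWE-PRIL, a fusion of TWEAK with its neighbour APRIL (Tnfsf13).

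Tnfsf12-202: gccccagctccgtttgtgccagGTGTCTGG
Tnfsfm13-202: gccccagctccgtttgtgccagACAGAGCT

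Of the 7 members with several annotated transcripts and a mean count of 50 or more, 4 gave over 95% of their TPM to a single transcript. The median leading share over 9433 such genes was 78.6%. How many of them passed 95% was not counted, so the 4 cannot be set against a share of all genes. Ltbr-201 held all of the Ltbr TPM in both libraries, Tnfsf10-201 held 96.96% and 100%, Tnfsf12-202 held 97.14% and 96.56%, and Tnfrsf10b-201 held 100% and 92.98%, each in replicates 1 and 2. Tnfsf9 and Tnfsf15 have 1 annotated transcript each. By kallisto, 2 of the 7 passed 95%, namely Tnfsf12 (96.9% ± 1.22, SD, n = 2) and Tnfsf10 (95.8% ± 2.46). Ltbr-201 held 93.8% ± 1.25 by kallisto, with 6.25% given to the retained-intron transcript Ltbr-203. Tnfrsf10b-201 held 76.4% ± 6.15, with 20.7% given to the retained-intron transcript Tnfrsf10b-203.

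Among these 7 members, Tnfrsf14 was the one whose leading transcript changed with the measure. Tnfrsf14-203, a 394-base transcript annotated with an incomplete 3′ end, led the gene with 54.81% of its TPM in replicate 1 and 42.17% in replicate 2. It held only 16.03% and 10.84% of the expected counts, since TPM divides counts by transcript length. By kallisto it held 28.8% ± 9.69 (SD, n = 2), behind Tnfrsf14-205 (33.9% ± 1.36) and Tnfrsf14-201 (30.3% ± 11.0). Only 11 of its 364 stretches of 31 bases occur in no other reference transcript.

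Both full-length transcripts of Tnfrsf14 were present. Tnfrsf14-205, with 276 codons, held 26.85% and 26.33% of TPM and 54.72% and 46.4% of counts in replicates 1 and 2. Tnfrsf14-201, with 275 codons and the downstream acceptor shown above, held 16.23% and 26.88% of TPM and 27.31% and 39.1% of counts. The libraries differed more for Tnfrsf14-201 than for Tnfrsf14-205. Without the 3 transcripts annotated with incomplete 3′ ends, an alternative added after the data were seen, the gene stood at 25.16 TPM in replicate 1 and 20.93 TPM in replicate 2, and its place among the 10 members moved to 7, below Fas. Its kallisto level was 0.747 times its RSEM level, against a median of 0.854 over 10445 genes, and 8.65% of those genes had a lower ratio.

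An incomplete leading transcript was found for 1 of the 7 members, against 1.23% of all such genes. The leading transcript differed between the quantifications for 1 of 7 (10.3% of all such genes) and held under 50% of the TPM for 1 of 7 (17.0% of all such genes). In each case that member was Tnfrsf14.

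Fas was a mixture of a long and a short coding transcript on the TPM scale. Fas-201 held 68.95% in replicate 1 and 64.34% in replicate 2, and Fas-202, which ends after 3 of the exons, held 25.77% and 27.31%. The 2 libraries lay close together for both. In expected counts Fas-202 was much smaller, at 7.092% and 7.497%, or 35.6 and 60.65 counts, and by kallisto it held 27.9% ± 1.84 of TPM (SD, n = 2). Unlike Tnfrsf14-203, Fas-202 is well marked, with 315 of its 502 stretches of 31 bases found in no other transcript. Fas-204, annotated as subject to nonsense-mediated decay, held 1.5% in replicate 1 and 5.73% in replicate 2, from 10.96 and 67.37 counts.

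For Tnfrsf11a, the RANK-coding transcript Tnfrsf11a-201 held 81.67% of TPM in replicate 1 and 82.2% in replicate 2. The retained-intron transcript Tnfrsf11a-203 held 17.55% and 15.28% of TPM but 3.316% and 2.872% of counts, or 111.0 and 112.5 counts. By counts, then, the coding transcript made up 96.62% and 96.92%. Osteoclast markers, set beside RANK because it governs that lineage, summed to 418 TPM in replicate 1 and 234 TPM in replicate 2. Of 8 such markers 4 reached 1 TPM in both libraries, against 43.6% of protein-coding genes. Atp6v0d2 led at 246.1 and 145.5 TPM, followed by Acp5 at 146.4 and 67.41 TPM, and these genes held most of the sum. Nfatc1 had 19.86 and 14.36 TPM, and Ctsk went the other way, at 4.73 and 5.59 TPM. Mmp9, Dcstamp and Ocstamp lay below 1 TPM in both libraries, and the calcitonin receptor gene Calcr had 0 counts in both. The part of these markers in the Tnfrsf11a level was not tested.

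**Figure D2:**
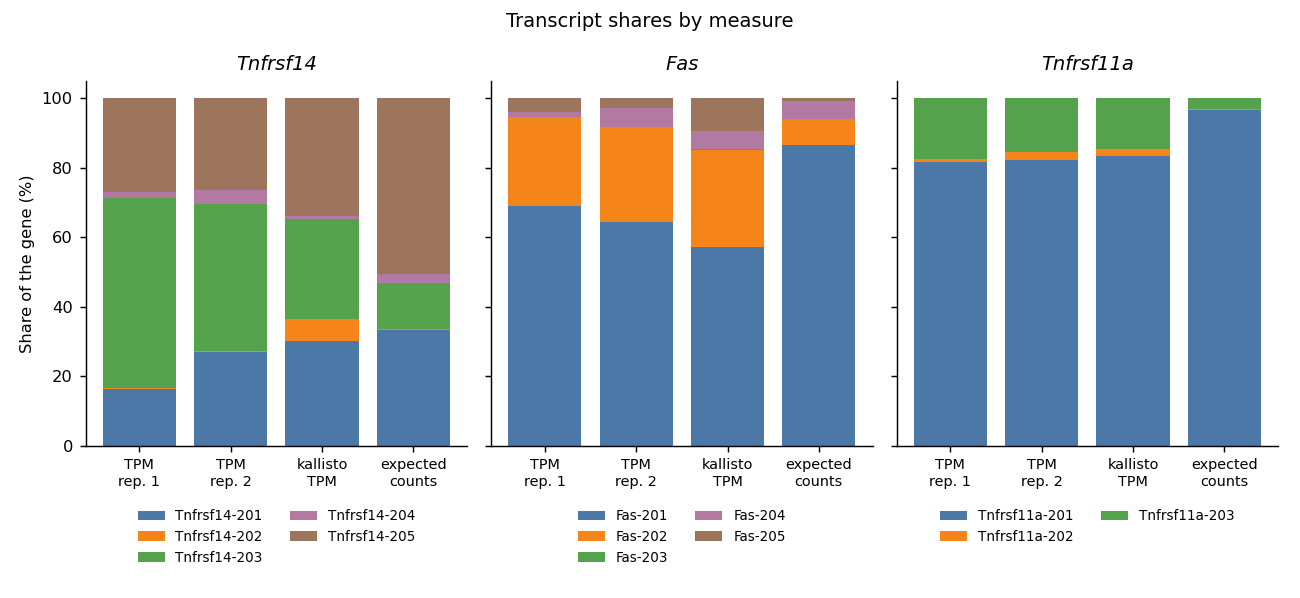
Stacked shares, in percent of the gene, of the annotated transcripts of Tnfrsf14, Fas and Tnfrsf11a, as RSEM TPM in replicate 1 and replicate 2, as kallisto TPM and as RSEM expected counts (both means of the 2 libraries). Tnfrsf14-203, Fas-202 and Tnfrsf11a-203 take 48.5%, 26.5% and 16.4% of TPM on average but 13.4%, 7.29% and 3.09% of counts.

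**Figure D3:**
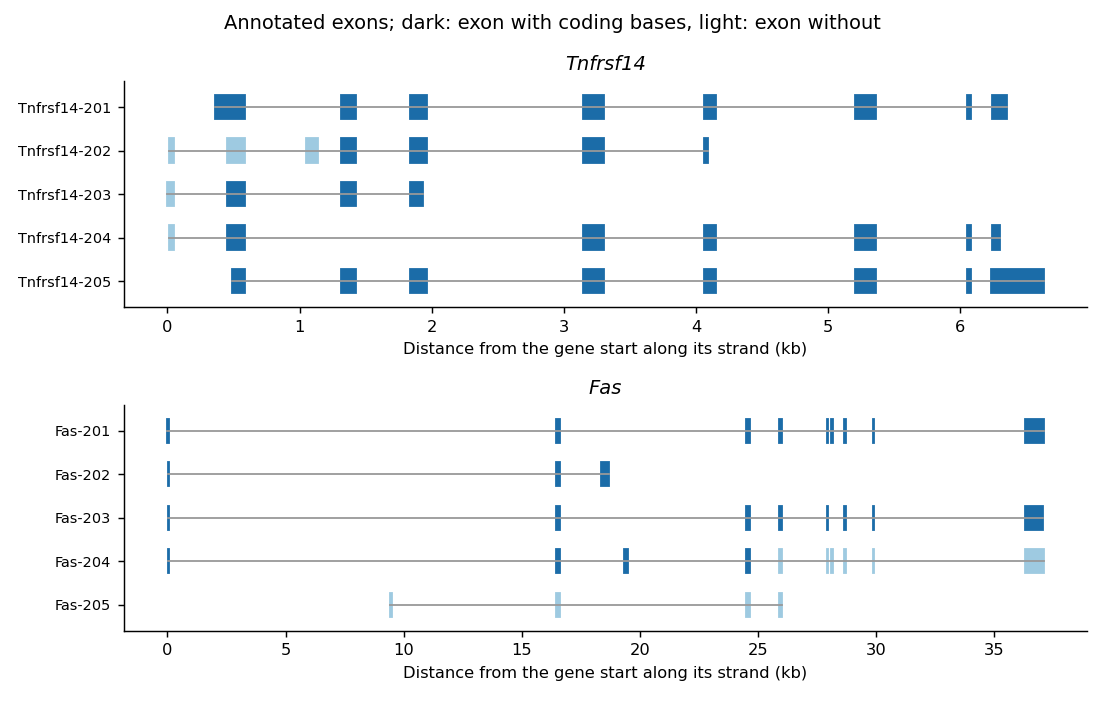
Annotated exons of the Tnfrsf14 and Fas transcripts by distance in kb from the gene start along its strand, dark where an exon holds coding bases and light where it holds none. Tnfrsf14-203 stops within the fourth of its exons, and Fas-202 has 3 exons against 9 in Fas-201.

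Tnfsf12 shares sequence with Tnfsfm13, and the division of reads between them rests on the part that they do not share. Of the 1405 stretches of 31 bases in Tnfsf12-202, 707 (50.3%) occur in no other gene. Tnfsfm13 was given 21.59 TPM in replicate 1 and 24.35 TPM in replicate 2, from 890 and 1516 counts, and APRIL, from the other part of the fusion, stood at 21.32 and 21.81 TPM as Tnfsf13. The sources used here do not say whether the counting used strand. Antisense partners held few counts: Gm11110, which overlaps Tnfsf9, had 8 and 27, and Tnfsf13os, which overlaps Tnfsf12, had 24 and 57. For Tnfrsf10b-201, 83.7% of the 31-base stretches occur in no other gene.

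The few reads of Tnfsf13b were divided among 4 transcripts, differently in each library. The coding transcript Tnfsf13b-203 had 4.03 counts in replicate 1 and 0 in replicate 2, and the coding transcript Tnfsf13b-201 had 0 and 9.49 counts. The retained-intron transcript Tnfsf13b-206 had 0.26 and 5.36 counts, or 25.04% and 42.71% of the TPM. Its mean share was the highest, but it led in neither library. Tnfsf13b-203 led in replicate 1 with 50.54% of the TPM and Tnfsf13b-201 in replicate 2 with 45.66%. In expected counts Tnfsf13b-203 led, with a mean of 40.3% against 16.7% for Tnfsf13b-206. Tnfsf13b-205, annotated as subject to nonsense-mediated decay, had 0.71 and 4.14 counts, or 24.42% and 11.63% of the TPM, and led by kallisto with a mean of 37.8%. Tnfsf13b-201 lacks an exon of 57 bases and corresponds to the form called delta BAFF, which is known to join full-length BAFF and limit its release. The junctions that tell the forms apart, on the plus strand of chromosome 8 after position 10014261, are as follows.

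Tnfsf13b-203: aatggaatgaacctcagaaacaTCATTCAA
Tnfsf13b-201: aatggaatgaacctcagaaacaGAACTTAC

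These estimated counts lie near the floor of 3, and the difference in split between the libraries was not tested.

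Ligands and receptors of the same pair were then set side by side, from a list of textbook partners added after the values were seen. The list is not complete. For Tnfsf10 it holds only Tnfrsf10b, at 0.70 and 0.58 TPM in replicates 1 and 2. It leaves out the receptor genes Tnfrsf22, at 1.24 and 1.01 TPM, and Tnfrsf23, at 8.52 and 10.86 TPM. Levels were unequal in the pairs named next. No bound for this was set, and no share over other gene pairs was counted. Tnfsf9, at 658.8 and 499.3 TPM in replicates 1 and 2, faced its receptor gene Tnfrsf9 at 1.19 and 1.39 TPM. Tnfsf15, at 35.72 and 42.63 TPM, faced its receptor gene Tnfrsf25 at 0 counts in both libraries. Tnfsf12 faced Tnfrsf12a, which encodes the TWEAK receptor Fn14, at 11.86 and 9.02 TPM.

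Among receptors, Fas had no detected ligand, with 0 counts of Fasl in both libraries. Tnfrsf11a likewise faced 0 and 2 counts of Tnfsf11, which encodes RANKL. Ltbr faced its lymphotoxin ligand genes at 11 and 1 counts (Lta) and 13 and 5 counts (Ltb), while Tnfsf14, which encodes LIGHT, a ligand that both Ltbr and HVEM bind, stood at 6.41 and 8.49 TPM in replicates 1 and 2. BAFF was the reverse case, with its ligand near the floor and the receptor gene Tnfrsf13b, for TACI, at 17.07 and 18.33 TPM. The other BAFF receptor genes had 1 and 0 counts (Tnfrsf13c) and 0 and 6 counts (Tnfrsf17). The list gave Tnfrsf13b no ligand other than BAFF. Tnfsf13, which encodes APRIL and was not listed as a partner, stood at 21.32 and 21.81 TPM in replicates 1 and 2.

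**Figure D4:**
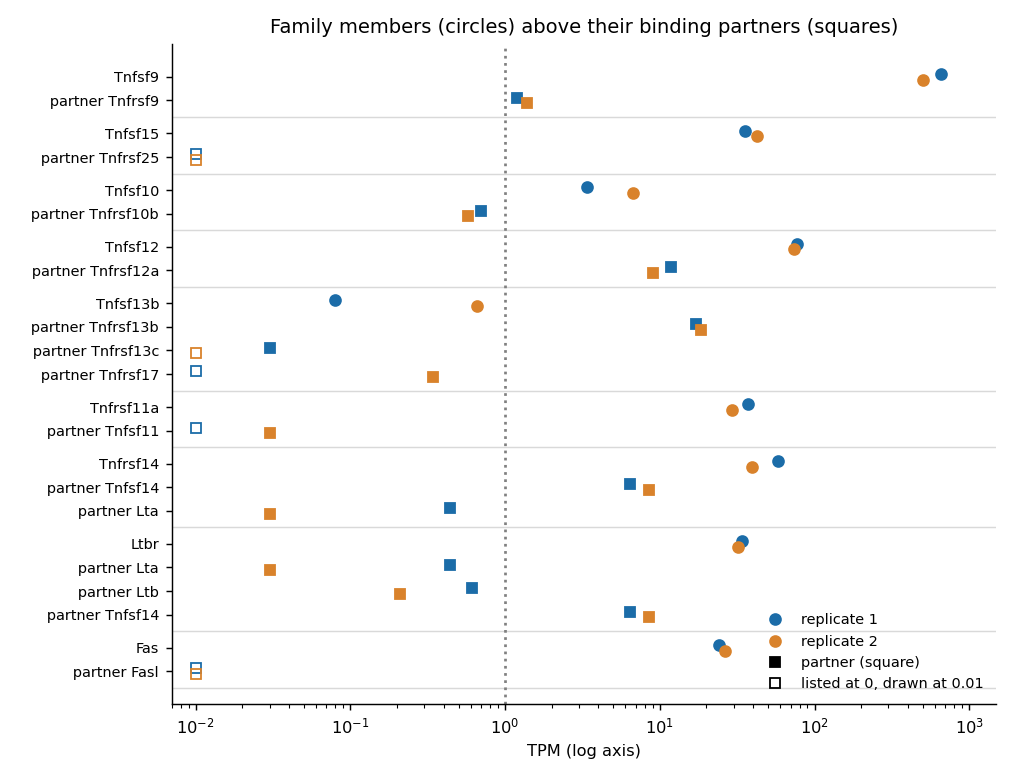
TPM on a log axis of family members (circles) and, under each, the binding partners listed for it (squares), for replicate 1 and replicate 2, with open symbols at 0.01 for genes listed at 0. Every partner drawn for Tnfsf9, Tnfsf15, Tnfrsf11a and Fas lies below 2 TPM in both libraries, while those 4 members lie above 20 TPM.

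The 2 libraries were close to each other for most members. The log2 ratio of normalised CPM, replicate 1 over replicate 2, could be given for the 9 members whose counts averaged at least 50, and it was positive for 4 and negative for 5, with a median of -0.05 against -0.03 over all 10445 genes. With 1 library on each side there is no test, and the intervals that follow cover counting error only. Of the 9 members, 1 was 2-fold or more apart, against 3.99% of all genes (2.14% higher and 1.85% lower in replicate 1).

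That member was Tnfsf10, with 352 counts in replicate 1 and 1051 in replicate 2. Its log2 ratio was -1.15 (95% counting interval -1.33 to -0.97), or 2.22-fold higher in replicate 2, and 2.84% of all genes were further apart in either direction. On the scale of log2(TPM + 1) the ratio was -0.81, short of 2-fold. Granulocyte markers ran the other way, with S100a9 at 265.7 TPM in replicate 1 and 41.20 TPM in replicate 2. So did the dendritic cell markers Siglech and Zbtb46 and, less far, Ccr7 (log2 ratio 0.60), while Xcr1 was close between the libraries. Flt3, with too few counts for a ratio, had 41 counts in replicate 1 and 11 in replicate 2. The part of these markers in the Tnfsf10 ratio was not tested.

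Ratios of the other members were modest but in part larger than counting error. Tnfsf15 had a log2 ratio of -0.38 (-0.46 to -0.31) and Fas of -0.26 (-0.42 to -0.10). Tnfsf9 was higher in replicate 1, at 0.27 (0.24 to 0.30), as were Tnfrsf14 (0.23, 0.07 to 0.40) and Tnfrsf11a (0.20). Tnfsf12 and Ltbr, both at -0.05 with intervals that include 0, were slightly higher in replicate 1 on the scale of log2(TPM + 1), at 0.07 and 0.08. Tnfrsf10b, with few counts, had 0.17 with an interval of -0.43 to 0.76.

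**Figure D5:**
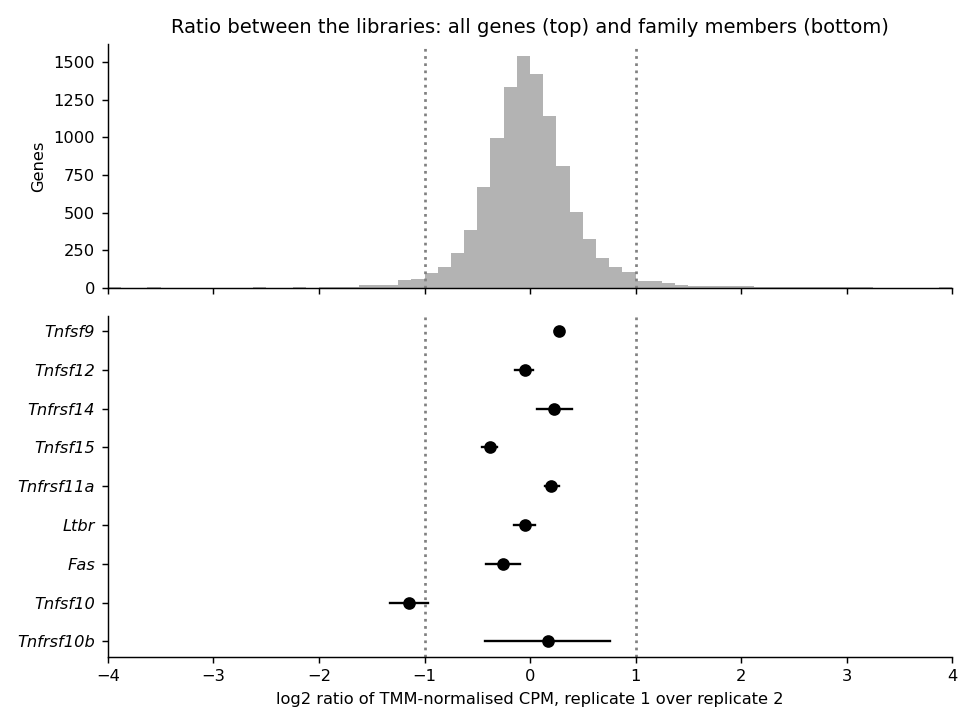
Log2 ratio of TMM-normalised CPM, replicate 1 over replicate 2, as a histogram of 10445 genes (top, values past 4 in either direction placed in the end bins) and for 9 family members with 95% counting intervals (bottom). Dotted lines mark 2-fold, and Tnfsf10, at -1.15, is the member beyond them.

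The rest of the family was described from lists. Of 13 other ligand genes, 5 reached 1 TPM in both libraries, close to the 43.6% of protein-coding genes. Their median was 0.61 TPM, with Cd40lg and Fasl at 0. They were led by Tnf, at 1620 TPM in replicate 1 and 768 TPM in replicate 2, and by Tnfsf4, the ligand gene of the costimulatory receptor OX40, at 71.89 and 47.77 TPM. Tnfsf9 therefore stood between Tnf and Tnfsf4 in level. Tnfsf8, the CD30 ligand gene, was the furthest apart, at 1.13 and 2.76 TPM with a log2 ratio of -1.41.

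Of 23 other receptor genes, 11 reached 1 TPM in both libraries, close to the 43.6% of protein-coding genes. Their median was 0.575 TPM, with 4 at 0. The most abundant were Tnfrsf1b at 836.4 and 688.2 TPM in replicates 1 and 2, Cd40 at 571.1 and 557.7 TPM and Tnfrsf1a at 115.0 and 124.6 TPM. Each lay above the 5 receptors described here, of which Tnfrsf14 was highest at 58.38 and 39.33 TPM. Without its transcripts with incomplete 3′ ends, Tnfrsf14 stood at 25.16 and 20.93 TPM, below Tnfrsf11a and Ltbr in both libraries. Tnfrsf26 was the furthest apart, at 3.90 and 8.52 TPM (log2 ratio -1.25).

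Downstream of HVEM, RANK, the lymphotoxin beta receptor and their relatives, 5 of 6 TRAF adaptor genes reached 1 TPM in both libraries. Over protein-coding genes the share was 43.6%. Traf1 was highest, at 87.03 TPM in replicate 1 and 76.58 TPM in replicate 2, and Traf2 had 22.19 and 23.13 TPM. Traf5 was 2-fold apart, at 21.14 and 8.69 TPM (log2 ratio 1.04), and Traf4 had 22 and 3 counts. All 8 genes of the noncanonical NF-kB pathway, which Ltbr and RANK engage, also reached 1 TPM in both, against the same 43.6%. Nfkb2, whose product is processed in this pathway, had 275.9 and 265.6 TPM, Relb had 89.69 and 78.04 TPM, and Birc3, a ubiquitin ligase gene that restrains the pathway, had 87.88 and 131.9 TPM. The pathway kinase gene Map3k14 was furthest apart, at 5.42 and 10.46 TPM (log2 ratio -1.08).

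Promoter windows of RefSeq (GRCm38.p6, 250 bases before to 50 after the annotated start) were found for 7 of the 10 members, 8 windows in all, and not matched for Tnfsf9, Tnfsf12 and Tnfrsf10b. The motifs searched on both strands were GGG and CC around 5 bases of any kind (an NF-kB-like pattern), GAAA repeated after 2 bases of any kind (as in interferon-responsive elements), TATAAA and CCAAT. The NF-kB-like pattern was in 4 of the 8 windows (Tnfrsf11a, Tnfrsf14, Ltbr and Fas), against 50.8% of 32851 windows in the table. CCAAT was in 1 (Tnfsf10), against 37.4%, and TATAAA in 0, against 13.6%. The repeated GAAA was in 2 windows, those of Tnfrsf14 and Tnfsf13b, against 3.44% of all windows. The 2 windows are printed because they hold that less common pattern, in capitals, 64 bases before the start on the opposite strand in Tnfrsf14 (chr4:154928028-154928327, minus strand) and 16 bases before the start in Tnfsf13b (chr8:10006383-10006682, plus strand). No match overlapped another motif in these windows.

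Tnfrsf14: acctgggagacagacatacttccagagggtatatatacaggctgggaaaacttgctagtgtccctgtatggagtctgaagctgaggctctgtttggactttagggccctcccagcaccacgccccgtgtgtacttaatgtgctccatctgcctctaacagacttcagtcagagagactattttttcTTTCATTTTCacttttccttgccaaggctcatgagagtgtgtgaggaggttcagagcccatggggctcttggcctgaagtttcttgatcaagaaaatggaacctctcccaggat
Tnfsf13b: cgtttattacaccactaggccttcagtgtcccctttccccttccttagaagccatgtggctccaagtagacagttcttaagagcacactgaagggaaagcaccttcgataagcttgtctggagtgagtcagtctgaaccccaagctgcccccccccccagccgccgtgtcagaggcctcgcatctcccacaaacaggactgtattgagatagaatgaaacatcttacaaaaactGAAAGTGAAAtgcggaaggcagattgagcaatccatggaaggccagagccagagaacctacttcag

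The Tnfrsf14 window starts from position 154928077, the first base of Tnfrsf14-205, whereas Tnfrsf14-201 begins upstream at 154928202 and Tnfrsf14-203 at 154928563. The match in capitals therefore lies inside the first exon of Tnfrsf14-201 (154927978 to 154928202), not upstream of that transcript. A match is a description of letters, and these windows were not measured here.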

How the data were processed

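Levels and transcript shares of 10 genes were taken from 2 libraries of 1 group, mapped by the labels. Per the file headers, the deposited gene table holds RSEM expected counts and TPM, and a matching transcript table adds the percent of the TPM of its gene that a transcript takes. The second transcript table holds the authors' estimated counts and TPM under kallisto column names, per the file headers, and was summed by gene. The build is mm10 per the labels. Program versions and the strand setting were not given by the sources used here. Total counts per library (33319563 and 50334059) set the precision, and intervals and floors cover counting error only (PCR copies of a molecule may be counted repeatedly).

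Expected counts were rounded. Entries that are not mouse genes (0.141% and 0.134% of counts) were left out. Ratios used TMM-normalised CPM (edgeR 4.0.16, R 4.3.3) for genes averaging at least 50 counts. Intervals are exact Clopper-Pearson intervals at 95% turned into ratios, and Poisson intervals for single counts. The ratio step was tested on simulated data. The libraries were not duplicates (chi-square per degree of freedom 120.8 over 12178 genes). Alternatives were DESeq2 1.42.0 size factors, other scales, thresholds and quantification, TPM without mitochondrial genes, and each replicate alone. TPM without transcripts with incomplete 3′ ends was added after the data were seen. No conditions were compared. Reference sequences of 31 bases were compared over all annotated transcripts with Python 3.11.15.

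The members and lists were chosen with earlier results of these data known. Named are all members, transcripts with 10% or more of a member in either library, and in each of the 5 family and pathway lists the 3 most abundant genes and the one furthest apart. Other genes named, such as binding partners, cell type markers and genes with low counts, were chosen after their values were seen.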

Additional observations from a re-analysis of the deposited data

How the results depend on the processing

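No paired analysis was possible because the labels give 1 group, and no test was run. The number of members reaching 1 TPM in both libraries was 8, with 7 at 5 TPM, 9 at 0.5 TPM and 8 by kallisto and in each replicate alone. The number 2-fold or more apart was 1, and 1 with DESeq2 size factors, kallisto counts, a 1.5-fold bound or a mean count of 200. It was 2 with no count minimum, which added Tnfsf13b, and 0 on log2(TPM + 1). Other receptor genes numbered 11 at 1 TPM and 7 at 5 TPM. No ratio of a member moved past its counting interval with DESeq2 or kallisto counts, while 7 of 9 did on log2(TPM + 1), where the median over all genes was 0.09 against -0.03. Levels moved past 1 SD for 2 of 10 members by kallisto, 3 without mitochondrial genes and 1 (Tnfrsf14) without incomplete transcripts. Leading shares did so for 7 of 8 members by kallisto and 5 of 8 in counts. Leaving out mitochondrial genes scales all genes of a library alike, and shares in counts differ from shares of TPM by transcript length. The share of Ltbr-201 had an SD of 0, so any change counted. Other causes were not tested. Depth limits Tnfsf13b and Tnfrsf10b.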

Other observations

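Death receptor signalling genes, which act below Fas and the TRAIL receptor, were all detected. Of 12 such genes, 12 reached 1 TPM in both libraries, against 43.6% of protein-coding genes, with a median of 24.9 TPM. None was 2-fold apart, which is near the 3.99% of all 10445 genes averaging at least 50 counts. Cflar, which encodes the caspase 8 inhibitor c-FLIP, was the most abundant, at 321.1 TPM in replicate 1 and 343.1 TPM in replicate 2. Casp8, the initiator caspase gene, had 48.92 and 47.12 TPM, so Cflar lay more than 6-fold above it in mRNA level in both libraries. Protein was not measured here. Ripk1, a kinase gene of survival and necroptosis, had 32.36 and 41.35 TPM. Mlkl, which encodes the membrane-rupturing effector of necroptosis, was furthest apart, at 27.14 and 44.78 TPM with a log2 ratio of -0.85.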
